A study of Mus with 2 samples.

Results

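The 9 genes described here encode the D-type cyclins (Ccnd1, Ccnd2 and Ccnd3), the kinases that bind them (Cdk4 and Cdk6) and 4 inhibitors of cyclin-dependent kinases (Cdkn1a, Cdkn1b, Cdkn1c and Cdkn2c). They were chosen by symbol from 28693 genes in the expression matrices, and each symbol matched 1 gene. Their RNA was measured by droplet single-cell sequencing in 2 libraries of kidney from newborn (P0) mice labelled Rbpj c/- ; Foxd1cre/+. Both libraries carry that genotype, in which a Cre recombinase made from the Foxd1 locus deletes the flox allele of Rbpj, the DNA-binding protein of Notch signalling, in the renal interstitium. Foxd1 is known to be active in stromal progenitors and in podocytes, so most nephron, ureteric and blood cells lie outside the lineage that Cre targets. The control libraries (Rbpj c/+ ; Foxd1cre/+) were not analysed here, so every comparison below is between cells of mutant kidneys and none is between genotypes. Rbpj stood at 25.5 and 24.6 CPM (the gene's UMIs divided by all UMIs of the group, times 1000000) in stroma-like cells and at 46.7 and 47.3 CPM over all kept cells of the 2 libraries. That level checks no label, because 3' tags need not lie in the deleted part of the gene. The labels do not say that the libraries came from separate animals, and p-values then measure only the spread between these samples.

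D-type cyclins are made in response to growth signals, bind CDK4 or CDK6, and start the phosphorylation of the retinoblastoma protein that releases E2F factors and lets a cell leave G1. The Cip/Kip proteins p21 (Cdkn1a), p27 (Cdkn1b) and p57 (Cdkn1c) bind many cyclin-CDK complexes and mostly hold them inactive, and p18 (Cdkn2c) is an INK4 inhibitor that binds CDK4 and CDK6 alone. In the kidney, p57 is a known marker of podocytes, which leave the cell cycle as they mature, and Ccnd1 is known to rise when nephron progenitors form the first epithelial structures of the nephron.

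By RefSeq's annotation of GRCm38.p6, the assembly also called mm10, the D-type cyclin genes lie on 3 chromosomes, with Ccnd1 at chromosome 7, 144929931 to 144939831, Ccnd2 at chromosome 6, 127125162 to 127152188 and Ccnd3 at chromosome 17, 47505051 to 47599689. The kinase genes are Cdk4 at chromosome 10, 127063535 to 127067288 and Cdk6 at chromosome 5, 3341004 to 3531008. The inhibitors are Cdkn1a at chromosome 17, 29090979 to 29100722, Cdkn1b at chromosome 6, 134920401 to 134925525, Cdkn1c at chromosome 7, 143458339 to 143461059 and Cdkn2c at chromosome 4, 109660876 to 109666756. All 9 are annotated as protein coding. Ccnd1 and Cdkn1c share chromosome 7, Ccnd2 and Cdkn1b share chromosome 6, and Ccnd3 and Cdkn1a share chromosome 17.

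The libraries held 163405630 and 135436576 UMIs. At least 2000 UMIs and at most 10% mitochondrial UMIs were required, likely doublets were removed, and 5910 and 4937 cells remained, of which 5058 and 4258 were assigned to a type by marker genes. Every type name ends in -like, since no label or deposited annotation names the cells. In each of the 11 types compared, between 3 and 5 of the type's own markers were among its 10 leading genes, and no member was a marker. The immune-like gate was also led by S100a9 and S100a8, 2 neutrophil genes. Distal tubule-like cells (16 and 8) and neural-like cells (0 and 2) were too few to compare. The libraries shared 6 barcode sequences. A cell was called dividing when it held UMIs of both Mki67 and Top2a, 2 genes of proliferating cells, and unmarked when it held neither, and cells with 1 of them were left out of the tests. Near-empty barcodes of 10 to 100 UMIs, taken as a profile of free RNA, held Mki67 at 137 and 127 CPM and Top2a at 171 and 195 CPM, and the part of free RNA in the state of single cells was not tested.

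Levels by type are given for unmarked cells, in CPM of replicate 1 and replicate 2. Ccnd1 was highest in early nephron-like cells, at 685 and 739.6 CPM. It followed in endothelial-like cells at 457 and 359 CPM and in loop of Henle-like cells at 237 and 339.9 CPM. Nephron progenitor-like cells held 52.9 and 51.0 CPM and podocyte-like cells 25.6 and 28.1 CPM. The first 3 types in this order did not overlap each other or any lower type. Mural-, stroma-, ureteric epithelium- and immune-like cells lay between 97.7 and 209.5 CPM, and immune-like cells overlapped each of the other 3. Thinned to 4600 UMIs per cell, 69.3% of unmarked early nephron-like cells held a Ccnd1 UMI against 16.7% of nephron progenitor-like and 2.67% of erythroid-like cells. Before thinning these shares were 83.3%, 36.7% and 3.53%, at median depths of 14246 and 15046, 13719 and 13299, and 4109 and 4306 UMIs.

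Ccnd2 had a different order. It was highest in stroma-like cells, at 668 and 628 CPM, and next in mural-like cells at 269.9 and 266 CPM. Nephron progenitor-like cells held 174 and 139 CPM, and proximal tubule-like cells 23.1 and 15.2 CPM. Stroma- and mural-like cells overlapped no other type. Near-empty barcodes held 302 and 421 CPM of Ccnd2, above every type except stroma-like cells. They held 272 and 215 CPM of Ccnd1 and 51.0 and 56.9 CPM of Cdk6, and the part of free RNA in these levels was not tested. Ureteric epithelium-like cells differed between the libraries, at 125 and 257 CPM, and overlapped the endothelial-like cells next in order. Ccnd3 varied least among the cyclins. Its highest values were 185 and 135 CPM in podocyte-like and 165 and 138 CPM in immune-like cells, and its lowest outside the erythroid-like cells were 63.9 and 58.0 CPM in early nephron-like cells. From podocyte-like down to loop of Henle-like cells each type overlapped the next in Ccnd3, and early nephron-like cells stood below them.

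**Figure D1:**
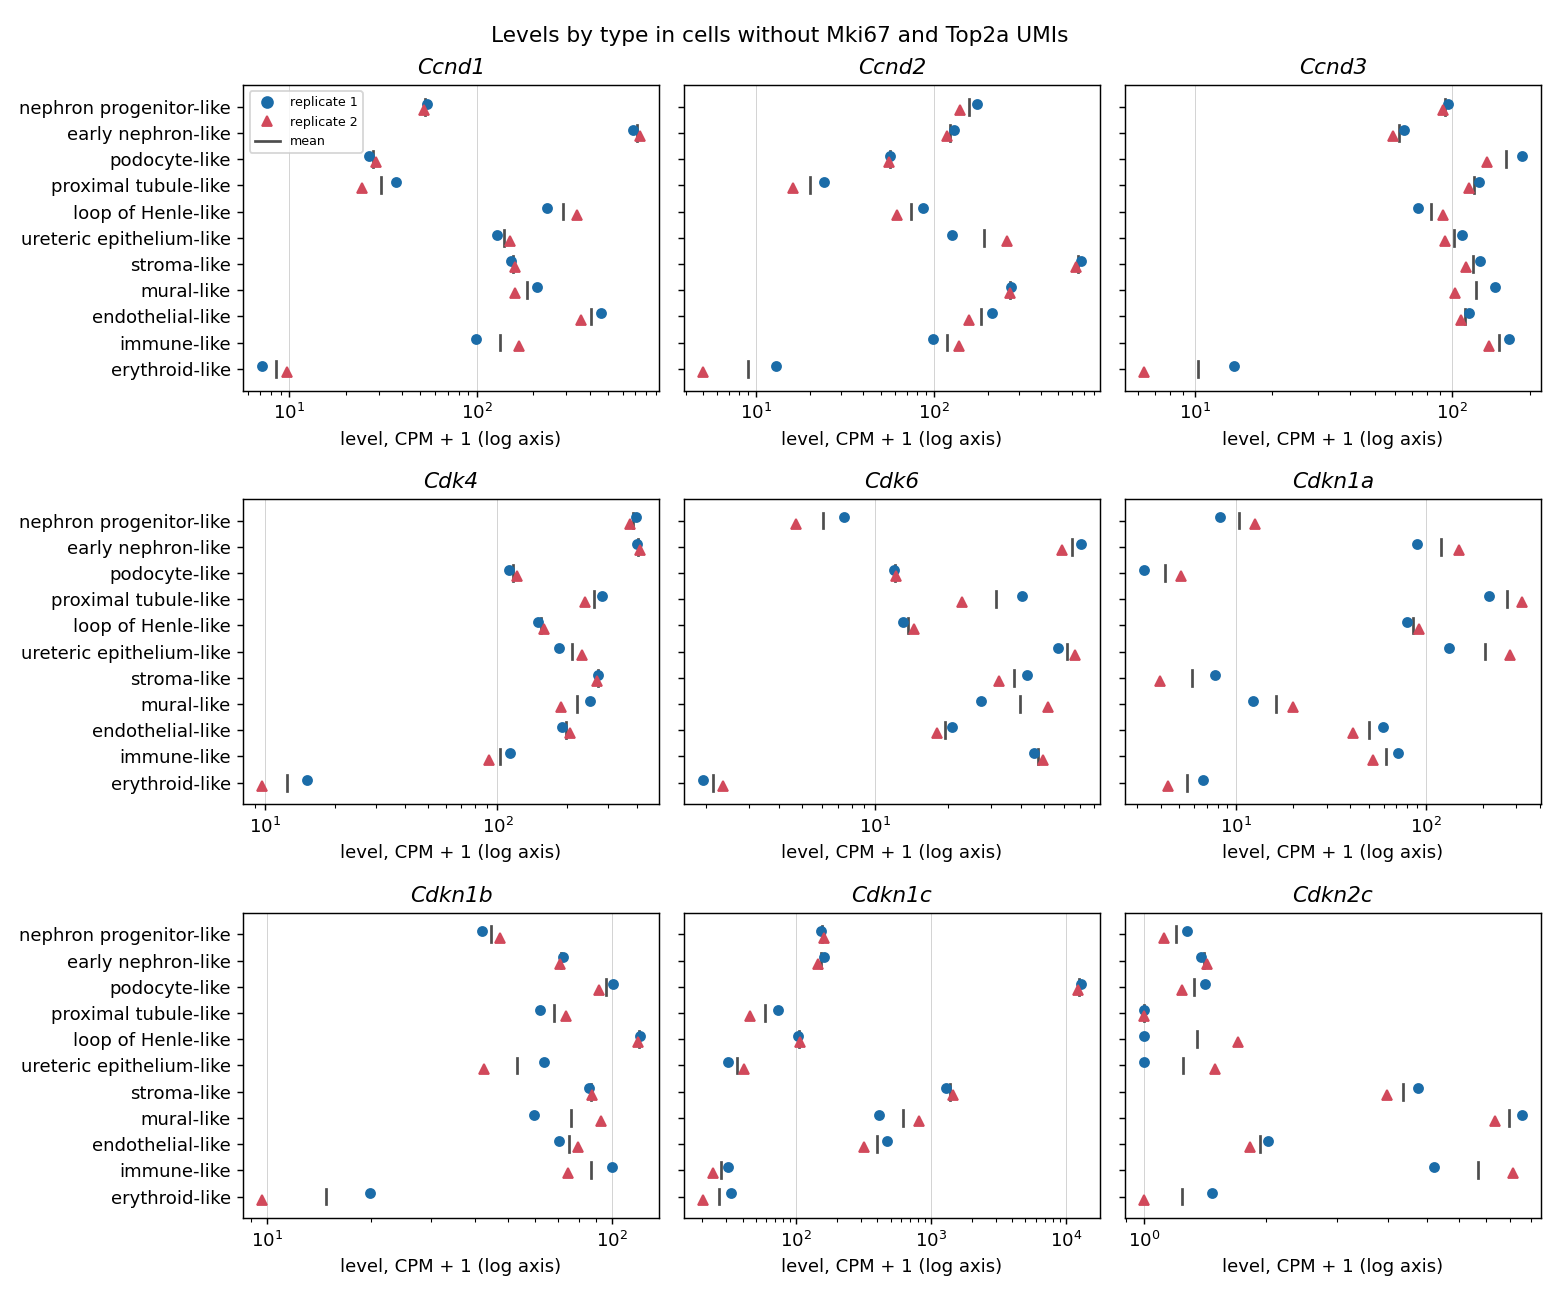
Level of each of the 9 genes in unmarked cells of 11 marker-gated types, in CPM plus 1 on a log axis with its own range in each panel; circles are replicate 1, triangles replicate 2 and bars their mean. Ccnd1 peaks in early nephron-like cells (685 and 739.6 CPM), Ccnd2 in stroma-like cells (668 and 628 CPM) and Cdkn1c in podocyte-like cells (12824 and 12249 CPM).

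As a share of the UMIs of the 3 D-type cyclins, each cyclin led in some types. Ccnd1 made up 78.1% and 80.9% of them in early nephron-like cells and 58.4% and 57.5% in endothelial-like cells. Ccnd2 made up 70.5% and 69.8% in stroma-like cells and 54.0% and 49.6% in nephron progenitor-like cells. Ccnd3 made up 68.2% and 74.9% in proximal tubule-like cells and 69.5% and 62.0% in podocyte-like cells, where both other cyclins were low. Nephron progenitor-, early nephron- and podocyte-like cells, 3 stages of 1 lineage, therefore had 3 different leading cyclins. UMIs count captured 3' ends and not reads along a transcript, and differences in capture between the genes were not tested.

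Cdk4, the main partner of D-type cyclins in many tissues, was highest in early nephron-like cells at 398 and 408 CPM and in nephron progenitor-like cells at 393 and 371 CPM. It was lower in stroma-like cells at 269 and 269 CPM, in podocyte-like cells at 111 and 120.0 CPM and in immune-like cells at 112 and 91.3 CPM. The early nephron- and nephron progenitor-like values did not overlap, and podocyte- overlapped immune-like cells. Cdk6, the second kinase, was highest in early nephron-like cells at 69.6 and 58.0 CPM and in ureteric epithelium-like cells at 55.9 and 66 CPM, which overlapped. In nephron progenitor-like cells it stood at 6.41 and 3.71 CPM, from 46 and 31 UMIs. Cdk6 thus made up 1.60% and 0.991% of the UMIs of the 2 kinases in nephron progenitor-like cells, 23.3% and 22.2% in ureteric epithelium-like cells and 28.2% and 34.6% in immune-like cells.

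Cdkn1c had the widest range of the members other than Cdkn2c. Podocyte-like cells held 12824 and 12249 CPM, and all of them had at least 1 Cdkn1c UMI even after thinning. Stroma-like cells followed at 1295 and 1455 CPM, mural-like cells at 409.6 and 816 CPM and endothelial-like cells at 471 and 318 CPM. Podocyte- and stroma-like cells overlapped no other type, whereas mural- overlapped endothelial-like cells. Nephron progenitor-like (151 and 159.5 CPM) and early nephron-like cells (161 and 144 CPM) overlapped as well. Ureteric epithelium-like cells held 30.3 and 40.2 CPM, below the 297 and 339 CPM of near-empty barcodes.

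Cdkn1a, a gene that p53 and stress signals induce, was highest in proximal tubule-like cells at 215 and 320.0 CPM and in ureteric epithelium-like cells at 132 and 276 CPM. Early nephron-like cells held 89.4 and 149.8 CPM and loop of Henle-like cells 78.3 and 91.2 CPM. Each of these 4 types overlapped the next in order. In nephron progenitor-like cells Cdkn1a was at 7.24 and 11.5 CPM, in stroma-like cells at 6.72 and 2.98 CPM and in podocyte-like cells at 2.27 and 4.12 CPM. Near-empty barcodes held 288 and 255 CPM of Cdkn1a. That is above every type in replicate 1, and above every type except proximal tubule- and ureteric epithelium-like cells in replicate 2, and the part of free RNA in these levels was not tested. Cdkn1b, which holds back CDK2 in resting cells, varied less. It was highest in loop of Henle-like cells at 119 and 118 CPM, followed by podocyte-like cells at 99.6 and 90.6 CPM, and stood at 41.1 and 46.5 CPM in nephron progenitor-like cells. From podocyte- down to nephron progenitor-like cells each type overlapped the next.

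Of the UMIs of the 3 Cip/Kip inhibitors, Cdkn1c made up 99.2% and 99.2% in podocyte-like and 93.4% and 94.2% in stroma-like cells. Cdkn1a made up 61.9% and 73.2% in proximal tubule-like and 58.6% and 77.1% in ureteric epithelium-like cells. Cdkn1b led in immune-like cells with 49.5% and 49.4% and in loop of Henle-like cells with 39.8% and 37.5%. In early nephron-like cells no inhibitor led in both libraries, with Cdkn1a at 27.8% and 41.2% and Cdkn1c at 50.1% and 39.6%.

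**Figure D2:**
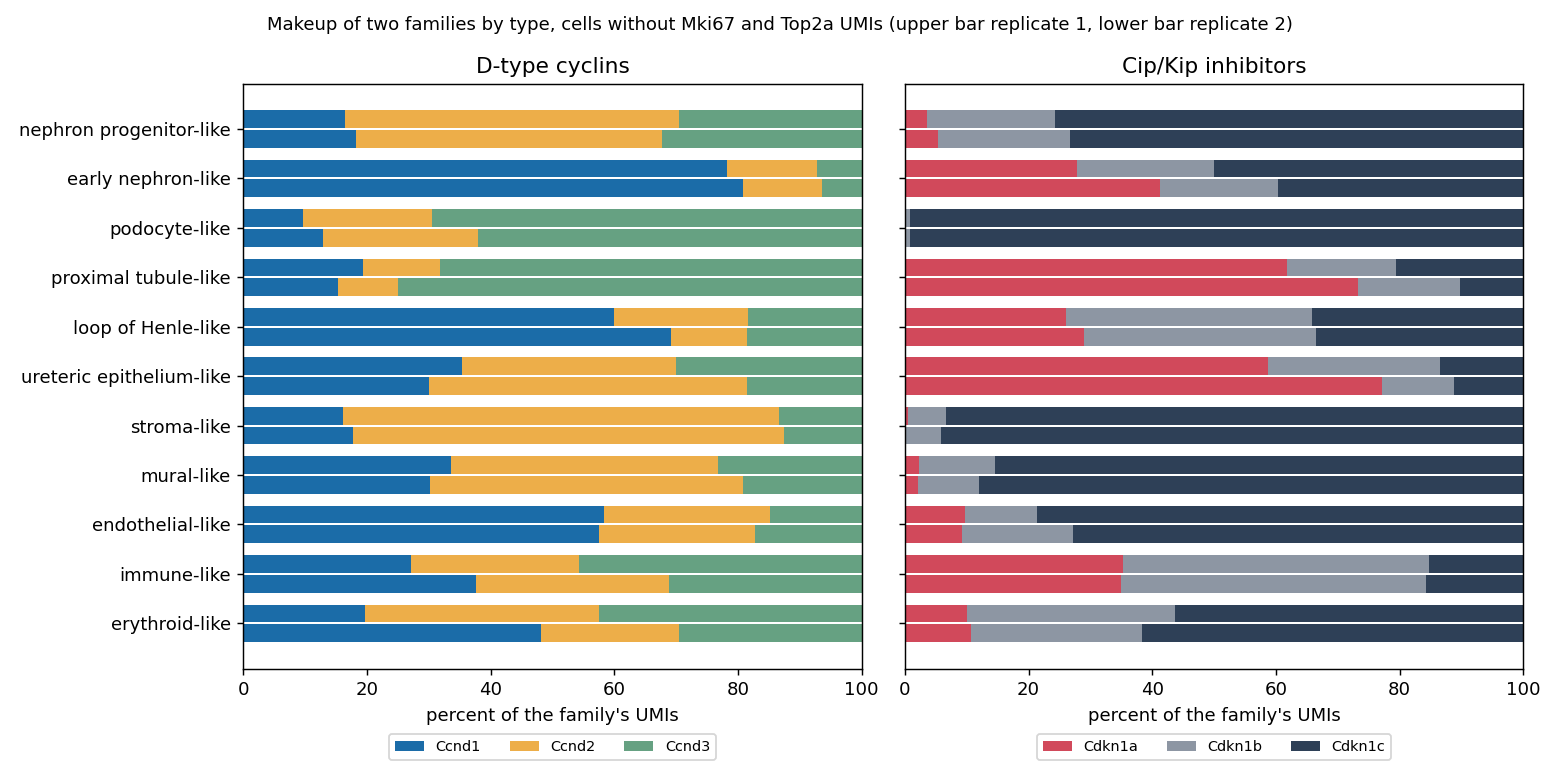
Share of each gene in the UMIs of its family in unmarked cells, in percent, for the D-type cyclins (left) and the Cip/Kip inhibitors (right); each type has a bar for replicate 1 above a bar for replicate 2. Ccnd1 fills most of the early nephron-like bars, Ccnd2 most of the stroma-like bars and Ccnd3 most of the proximal tubule-like bars, and Cdkn1c fills 99.2% and 99.2% of the podocyte-like bars.

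Cdkn2c was near 0 in unmarked cells. Stroma-like cells held 24 and 16 UMIs (3.75 and 2.98 CPM), immune-like cells 4.20 and 7.16 CPM and mural-like cells 7.55 and 6.33 CPM. Every other type was at or below 1.03 CPM in both libraries, and proximal tubule-like cells held 0 UMIs. Erythroid-like cells, whose UMIs are mostly of globin genes, had the lowest mean CPM of all members except Cdkn1a and Cdkn2c. The scaling used in the tests (TMM factors of 0.0811 and 0.0702) treats these sums as diluted, so that this order in CPM is a description of shares of UMIs and is not tested.

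The tests asked which members differed between nephron progenitor-like cells and 6 other types, all in unmarked cells. UMIs were summed per library, type and state and compared with edgeR's quasi-likelihood test, with the library as a block and Benjamini-Hochberg adjustment over 14415 genes (edgeR adjusted p, called under 0.05). All 9 members passed the filter on low counts. The 6 comparisons share their progenitor sums, and most genes differ between such types, so the share of all genes called is given with each count.

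Early nephron-like cells differed from nephron progenitor-like cells in 5 of 9 members, where 33.2% of all genes were called. Ccnd1 was higher by 3.63 ± 0.18 (SE, edgeR adjusted p = 5.98e-18) on the log2 scale, Cdk6 by 3.53 ± 0.21 (SE, edgeR adjusted p = 6.47e-16) and Cdkn1a by 3.50 ± 0.35 (SE, edgeR adjusted p = 3.33e-10). Cdkn1b was higher by 0.54 ± 0.15 (SE, edgeR adjusted p = 0.00464) and Ccnd3 was lower, at -0.76 ± 0.13 (SE, edgeR adjusted p = 1.87e-05). A cyclin, a kinase and 2 inhibitors were thus higher together. Ccnd2 (-0.49, edgeR adjusted p = 0.0527), Cdk4 (-0.065), Cdkn1c (-0.17) and Cdkn2c were not called. With at most 5% mitochondrial UMIs the Cdkn1b call ended, at 0.49 (edgeR adjusted p = 0.193), with adjusted p from 2.79e-04 to 0.193 over its 14 alternatives with a test, and Cdk6 was 4.68. The Cdkn1a difference was 2.53 with a stricter gate and between 2.84 and 2.90 with cells thinned or held to at most 50000 UMIs.

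In podocyte-like cells 8 of 9 members were called, against 57.2% of all genes. Cdkn1c was higher by 6.20 ± 0.24 (SE, edgeR adjusted p = 6.56e-22) on the log2 scale. Of the cyclins and kinases, Cdk4 was lower at -1.85 ± 0.11 (SE, edgeR adjusted p = 3.27e-16), Ccnd2 at -1.63 ± 0.20 (SE, edgeR adjusted p = 1.51e-08) and Ccnd1 at -1.08 ± 0.22 (SE, edgeR adjusted p = 8.47e-05). Ccnd3 (0.64 ± 0.11), Cdk6 (1.01 ± 0.27) and Cdkn1b (0.99 ± 0.13) were higher. Cdkn1a was lower at -1.70 ± 0.65 (SE, edgeR adjusted p = 0.0243), a call that ended without doublet removal, at -0.71 (edgeR adjusted p = 0.299), with adjusted p from 3.28e-08 to 0.299 over its 14 alternatives with a test. Podocyte-like cells thus combined the highest Cdkn1c with low Cdk4, Ccnd1 and Cdkn1a. The Cdk6 difference was 2.01 with at most 5% mitochondrial UMIs.

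Proximal tubule-like cells differed in 8 of 9 members, against 62.7% of all genes. Cdkn1a was higher by 4.85 ± 0.32 (SE, edgeR adjusted p = 2.15e-15) and Cdk6 by 2.66 ± 0.21 (SE, edgeR adjusted p = 5.04e-13), and Ccnd2 was lower at -2.98 ± 0.23 (SE, edgeR adjusted p = 2.68e-13). Cdkn1c was lower at -1.37 ± 0.23, Ccnd1 at -0.74 ± 0.22 and Cdk4 at -0.52 ± 0.11, while Cdkn1b was higher at 0.63 ± 0.14. The small rise of Ccnd3, 0.41 ± 0.11 (SE, edgeR adjusted p = 0.00192), was not called when cells were thinned, at 0.25 (edgeR adjusted p = 0.17), with adjusted p from 9.45e-04 to 0.277 over its 13 alternatives with a test.

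Ureteric epithelium-like cells, from a separate lineage, differed in 5 of 9 members against 51.9% of all genes, a share close to that of all genes. Cdkn1a (4.23 ± 0.34 SE, edgeR adjusted p = 6.05e-13), Cdk6 (3.43 ± 0.22 SE, edgeR adjusted p = 1.94e-15) and Ccnd1 (1.24 ± 0.20 SE, edgeR adjusted p = 2.33e-06) were higher. Cdkn1c (-2.32 ± 0.29 SE, edgeR adjusted p = 1.90e-08) and Cdk4 (-1.06 ± 0.11 SE, edgeR adjusted p = 9.91e-10) were lower.

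Stroma-like cells differed in 8 of 9 members against 50.4% of all genes. Cdkn1c was higher by 3.13 ± 0.21 (SE, edgeR adjusted p = 7.28e-15), Cdk6 by 2.84 ± 0.20 (SE, edgeR adjusted p = 5.33e-14), Ccnd2 by 2.03 ± 0.18 (SE, edgeR adjusted p = 6.40e-12) and Ccnd1 by 1.56 ± 0.18 (SE, edgeR adjusted p = 4.46e-09). Cdkn1b (0.95 ± 0.13) and Ccnd3 (0.34 ± 0.11) were higher by less, Cdk4 was lower at -0.53 ± 0.10, and Cdkn1a at -0.91 was not called. With at most 5% mitochondrial UMIs the Cdk6 difference was 3.50. Cdkn2c was higher as well, from 24 and 16 UMIs in stroma-like against 2 and 1 in nephron progenitor-like cells. Without the replicate block the Ccnd3 call ended, at 0.34 (edgeR adjusted p = 0.0854), with adjusted p from 6.76e-04 to 0.0854 over its 14 alternatives with a test.

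Endothelial-like cells differed in 7 of 9 members against 57% of all genes. Ccnd1 (2.94 ± 0.18 SE, edgeR adjusted p = 4.22e-16), Cdkn1a (2.43 ± 0.38 SE, edgeR adjusted p = 1.38e-06), Cdk6 (1.83 ± 0.26 SE, edgeR adjusted p = 2.17e-07) and Cdkn1c (1.30 ± 0.21 SE, edgeR adjusted p = 1.52e-06) were higher. Cdkn1b was higher at 0.70 ± 0.14 and Cdk4 lower at -1.0 ± 0.11. The Cdkn2c call (2.09 ± 0.88 SE, edgeR adjusted p = 0.0424) rested on 4 and 2 UMIs against 2 and 1 and ended under 5 of 14 alternatives with a test, with adjusted p from 0.0147 to 0.117. Where it ended the difference lay between 1.70 (stricter gate) and 4.81 (at most 5% mitochondrial UMIs), and from replicate 1 alone it was 1.49. From replicate 2 alone the Cdkn1a difference was 1.75, and with at most 5% mitochondrial UMIs the Cdk6 difference was 2.66.

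A list of 12 genes induced by tissue dissociation (Fos, Jun, Atf3 and others) moved with these comparisons: of 11 tested, 10 were higher in early nephron-like, 6 in podocyte-like, 4 in proximal tubule-like, 9 in stroma-like, and 8 each in ureteric epithelium- and endothelial-like cells, while 1 was lower in each of proximal tubule-, stroma- and endothelial-like cells. The median log2 difference of those 11 was 2.48 in early nephron-like, 2.28 in podocyte-like, 1.46 in proximal tubule-like, 2.14 in stroma-like, 3.61 in ureteric epithelium-like and 2.86 in endothelial-like cells. The summed CPM of the 12 genes was 736 and 663 in nephron progenitor-like, 1157 and 1047 in early nephron-like, 1203 and 1499 in podocyte-like and 668 and 641 in proximal tubule-like cells. It was 717 and 825 in stroma-like, 981 and 1485 in ureteric epithelium-like and 1125 and 1122 in endothelial-like cells. Cdkn1a was higher than in nephron progenitor-like cells in 4 of these types (early nephron-, proximal tubule-, ureteric epithelium- and endothelial-like), and the part of this response in the Cdkn1a and Ccnd1 differences was not tested.

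Each of the 11 types was also compared with the mean of the other types in unmarked cells. Of 99 comparisons of a member with a type, 62 were called, 33 higher and 29 lower, where 36.5% of the comparisons of all genes were called, 23.4% higher and 13.1% lower. The highest share of all genes called was 50.2% in nephron progenitor-like cells and the lowest 9.86% in erythroid-like cells. Scaled to total UMIs in place of TMM, 75 were called, 47 higher and 28 lower. The share of all genes called under that scaling was not counted, so the shares above do not apply to these counts. Cdkn1b in early nephron- and erythroid-like cells and Ccnd3 in nephron progenitor- and ureteric epithelium-like cells changed sign. That scaling moved the median of all genes by -3.62 (log2) in erythroid-like, 0.44 in early nephron-like, 0.29 in nephron progenitor-like and 0.48 in ureteric epithelium-like cells, and by at most 0.13 in the 6 comparisons with nephron progenitor-like cells, where no called member changed sign.

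Dividing cells were most frequent among early nephron-like cells, at 51.4% and 55.2% of cells in replicates 1 and 2, and rare among podocyte-like cells at 1.10% and 1.21%. Nephron progenitor-like cells stood at 27.5% and 20.3%, stroma-like at 20.1% and 21.6% and endothelial-like cells at 20.8% and 29.2%. Thinned to 4600 UMIs per cell, the shares were 34.3% and 34.1% for early nephron-like, 18.2% and 12.2% for nephron progenitor-like and 0.475% and 0.641% for podocyte-like cells. The type with the highest Ccnd1 had the highest share of dividing cells, and the type with the highest Cdkn1c one of the lowest. Not all other types followed this order. Stroma-like cells, next to podocyte-like cells in Cdkn1c, had 20.1% and 21.6% dividing cells. Erythroid-like cells, with the lowest mean CPM of Cdkn1c, had 0.209% and 0.557%. Loop of Henle-like cells held more Ccnd1 than nephron progenitor-like cells, at 22.4% and 20.6% dividing against 27.5% and 20.3%. A relation over all types was not tested. Podocyte-, mural- and erythroid-like cells had fewer than 20 dividing cells in a library, which leaves 8 types for the tests of dividing against unmarked cells.

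Barcodes called dividing held more UMIs than unmarked ones in each of those 8 types, and the call itself selects on depth, since it asks for UMIs of both genes against UMIs of neither. Median UMIs were 13660.0 and 12834 against 8779 and 8688 in stroma-like cells, 28420.5 and 25166 against 14246 and 15046 in early nephron-like cells and 114100.0 and 92680.0 against 15695 and 14383 in loop of Henle-like cells. Over 50000 UMIs were held by 21 of 28 and 16 of 26 dividing loop of Henle-like cells and by 36 of 50 and 22 of 38 dividing ureteric epithelium-like cells. When cells were thinned before states were called, the dividing share of ureteric epithelium-like cells went from 33.3% and 26.0% to 12.1% and 8.97%. The part of depth, and of barcodes with more than 1 cell, in the differences below was not tested beyond the alternatives given with them.

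Averaged over the 8 types, 6 of 9 members were called between dividing and unmarked cells, against 29.3% of all genes. On the log2 scale, Cdkn2c (4.31 ± 0.27 SE, edgeR adjusted p = 3.40e-15), Cdk4 (0.45 ± 0.045 SE, edgeR adjusted p = 3.88e-10) and Ccnd1 (0.45 ± 0.074 SE, edgeR adjusted p = 1.01e-05) were higher in dividing cells. Cdkn1a (-0.81 ± 0.16 SE, edgeR adjusted p = 1.10e-04), Ccnd3 (-0.42 ± 0.052 SE, edgeR adjusted p = 4.27e-08) and Ccnd2 (-0.36 ± 0.10 SE, edgeR adjusted p = 0.00477) were lower. Cdk6 (-0.13, edgeR adjusted p = 0.324), Cdkn1b (0.064) and Cdkn1c (-0.24) were not called. The Ccnd1 call ended with at most 50000 UMIs per cell, at 0.16 (edgeR adjusted p = 0.169) over 5 types, and its sign turned when cells were thinned before states were called, at -0.027 (edgeR adjusted p = 0.897) over 4 types, with adjusted p from 9.15e-21 to 0.897 over its 14 alternatives with a test. The Cdkn1a call ended with at most 5% mitochondrial UMIs, at -0.18 (edgeR adjusted p = 0.759), and with cells thinned before states were called, at -0.44 (edgeR adjusted p = 0.128). Both values are over 4 types, without proximal tubule-, loop of Henle- and ureteric epithelium-like cells. The adjusted p for Cdkn1a went from 4.67e-27 to 0.759 over 14 alternatives. The Ccnd2 call ended without doublet removal (-0.17, edgeR adjusted p = 0.149) and with either gene enough for a dividing cell (-0.33, edgeR adjusted p = 0.135), with adjusted p from 1.54e-18 to 0.149 over 14 alternatives. The Ccnd3 call ended with cells thinned before states were called (-0.21, edgeR adjusted p = 0.0849), with adjusted p from 4.29e-15 to 0.0849 over 14 alternatives. That value too is over 4 types, without immune- and ureteric epithelium-like cells. The averaged Cdkn2c difference includes proximal tubule-like cells, whose unmarked sums are 0, and its fitted size depends on how that 0 is treated. It was 3.36 with either gene enough for a dividing cell, 3.69 with cells thinned after states were called and 3.60 from replicate 2 alone.

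The difference varied between types. A joint test of whether the dividing-to-unmarked difference varied over the 8 types called 7 of 9 members, against 22.5% of all genes, with edgeR adjusted p = 5.54e-05 for Ccnd1, 9.09e-05 for Cdkn1a, 1.78e-04 for Cdkn1c and 2.47e-04 for Ccnd2. Cdk6 (edgeR adjusted p = 0.0797) and Cdkn2c (0.679) were not called. Within types, 33 of 72 comparisons of a member with a type were called, 19 higher and 14 lower in dividing cells, where 7.32% of the comparisons of all genes were called higher and 7.14% lower. The share of all genes called was 23.4% in stroma-like, 21% in early nephron-like, 17.3% in ureteric epithelium-like, 16.7% in proximal tubule-like and 13.5% in loop of Henle-like cells. It was 9.56% in endothelial-like, 7.44% in immune-like and 6.91% in nephron progenitor-like cells.

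**Figure D3:**
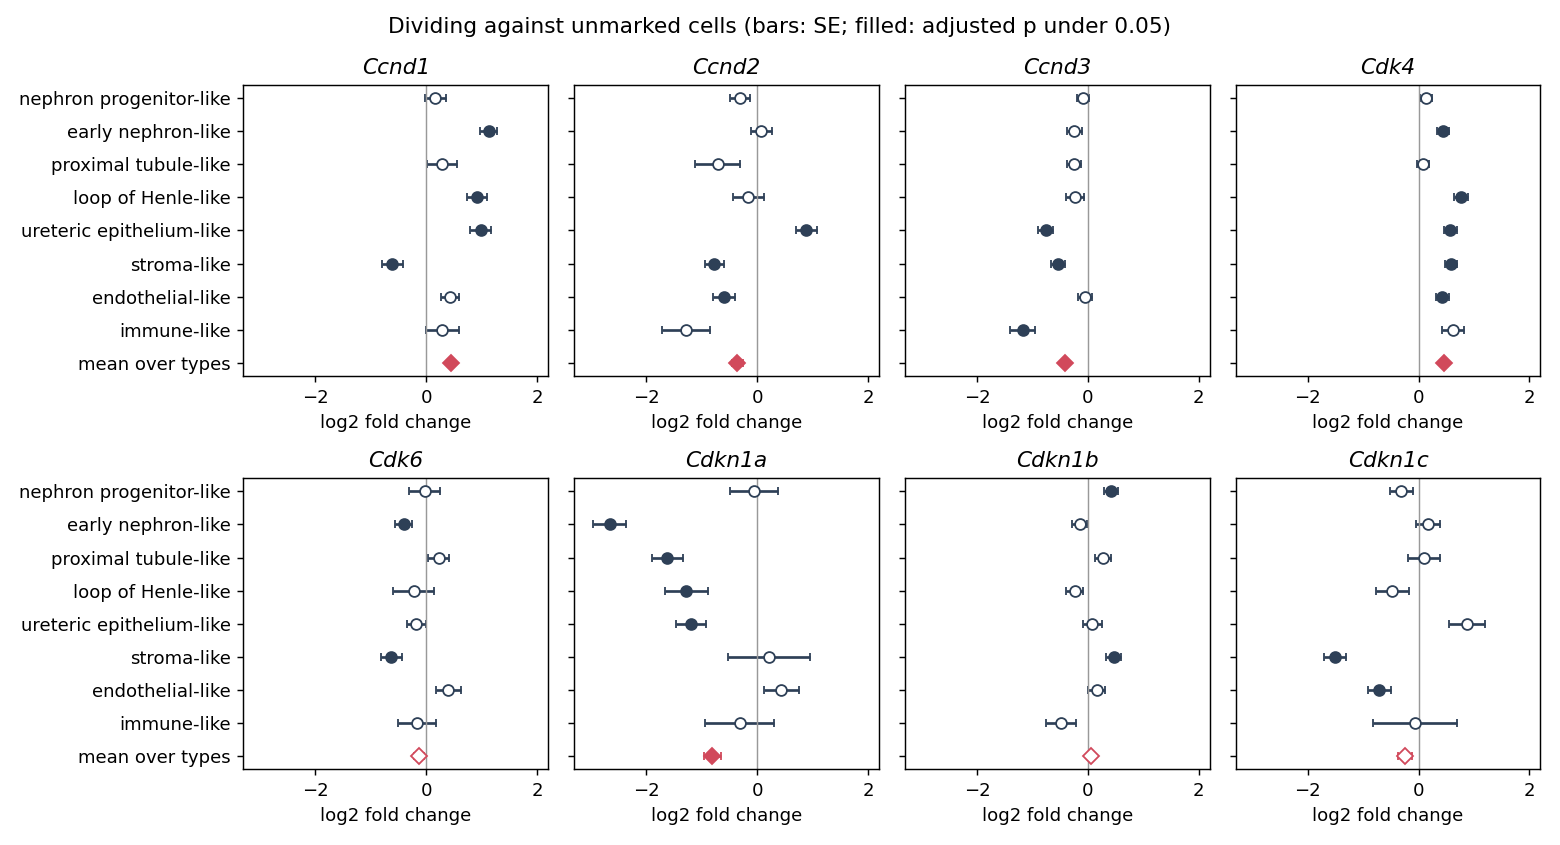
Log2 fold change of dividing against unmarked cells for 8 genes in 8 types (circles) and averaged over the types (diamonds), with SE bars; filled symbols have an edgeR adjusted p under 0.05, and Cdkn2c is plotted separately by state. Ccnd1 lies at 1.12 in early nephron-like and at -0.61 in stroma-like cells, and Cdkn1a at -2.66 in early nephron-like cells.

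Ccnd1 was higher in dividing cells of 3 epithelial types and lower in dividing stroma-like cells. In early nephron-like cells it stood at 1503 and 1560.1 CPM in dividing against 685 and 739.6 CPM in unmarked cells, a log2 difference of 1.12 ± 0.16 (SE, edgeR adjusted p = 1.08e-06). The groups did not overlap. In ureteric epithelium-like cells the difference was 0.98 ± 0.19 (SE, edgeR adjusted p = 1.72e-04) and in loop of Henle-like cells 0.91 ± 0.18 (SE, edgeR adjusted p = 2.97e-04). Stroma-like cells held 95.4 and 101 CPM when dividing against 152 and 159 CPM when unmarked, a difference of -0.61 ± 0.18 (SE, edgeR adjusted p = 0.0131) in the opposite direction. The stroma call ended with at most 5% mitochondrial UMIs (-0.52, edgeR adjusted p = 0.0569), with either gene enough for a dividing cell (-0.49, edgeR adjusted p = 0.082) and without the replicate block (-0.61, edgeR adjusted p = 0.0566), with adjusted p from 2.34e-06 to 0.082 over its 14 alternatives with a test. The ureteric call ended when cells were thinned after states were called, at 0.56 (edgeR adjusted p = 0.313), with adjusted p from 2.18e-15 to 0.313 over 11 alternatives.

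Ccnd2 was lower in dividing stroma-like cells, at 404 and 333 CPM against 668 and 628 CPM, a log2 difference of -0.77 ± 0.17 (SE, edgeR adjusted p = 9.53e-04). In ureteric epithelium-like cells it was higher, at 378 and 363 CPM against 125 and 257 CPM, a difference of 0.89 ± 0.19 (SE, edgeR adjusted p = 8.77e-04) that was 1.55 from replicate 1 alone and 0.44 from replicate 2 alone. The fall in endothelial-like cells (-0.60 ± 0.20 SE, edgeR adjusted p = 0.0493) ended under 6 of 14 alternatives with a test, with adjusted p from 9.82e-09 to 0.22. Where it ended the difference lay between -0.63 and -0.41. Ccnd3 was lower in dividing immune-like (-1.18 ± 0.22 SE, edgeR adjusted p = 3.22e-04), ureteric epithelium-like (-0.76 ± 0.14 SE, edgeR adjusted p = 1.27e-04) and stroma-like cells (-0.53 ± 0.12 SE, edgeR adjusted p = 0.00113), and no type had a called rise. With cells thinned after states were called the immune-like value was -1.83. The ureteric Ccnd3 call ended when cells were thinned after states were called (-0.66, edgeR adjusted p = 0.488), with adjusted p from 1.77e-06 to 0.488 over 11 alternatives. Among dividing ureteric epithelium-like cells Ccnd2 made up 53.6% and 49.8% of D-type cyclin UMIs, and Ccnd1 made up 88.3% and 90.8% among dividing early nephron-like cells.

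Cdk4 was higher in dividing cells of 5 types, with log2 differences of 0.76 ± 0.13 (SE, edgeR adjusted p = 5.42e-05) in loop of Henle-like, 0.58 ± 0.11 (SE, edgeR adjusted p = 7.51e-05) in stroma-like, 0.57 ± 0.12 (SE, edgeR adjusted p = 4.48e-04) in ureteric epithelium-like, 0.44 ± 0.11 (SE, edgeR adjusted p = 0.00245) in early nephron-like and 0.43 ± 0.11 (SE, edgeR adjusted p = 0.011) in endothelial-like cells. In nephron progenitor-like cells, where unmarked cells already held 393 and 371 CPM, dividing cells held 449 and 426 CPM, and the difference of 0.14 ± 0.10 was not called. When cells were thinned after states were called, only the stroma call of these 5 remained, and the other differences were 0.35 in loop of Henle-like, 0.31 in endothelial-like, 0.28 in early nephron-like and 0.23 in ureteric epithelium-like cells. The early nephron-like call also ended with cells thinned before states were called (0.18, edgeR adjusted p = 0.398), with adjusted p from 1.59e-05 to 0.398 over 14 alternatives, and the endothelial-like call ended under 4 of 14, with adjusted p from 5.30e-04 to 0.409. Cdk6 was lower in dividing stroma-like cells (-0.63 ± 0.19 SE, edgeR adjusted p = 0.0123), and its fall in early nephron-like cells (-0.41 ± 0.15 SE, edgeR adjusted p = 0.0469) ended under 7 of 14 alternatives with a test, with adjusted p from 0.00254 to 0.338 and differences between -0.54 and -0.34 where it ended. The stroma Cdk6 call ended with at most 5% mitochondrial UMIs (-0.58, edgeR adjusted p = 0.0715) and without the replicate block (-0.63, edgeR adjusted p = 0.0785), with adjusted p from 0.00189 to 0.0785 over 14 alternatives.

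Cdkn1a was lower in dividing cells of the 4 types in which it was most abundant. In early nephron-like cells it fell from 89.4 and 149.8 CPM in unmarked to 19.1 and 17.0 CPM in dividing cells, a log2 difference of -2.66 ± 0.30 (SE, edgeR adjusted p = 1.39e-08) that was -1.69 with a stricter gate and -2.06 with cells thinned after states were called. In proximal tubule-like cells it fell from 215 and 320.0 to 107 and 74.5 CPM, a difference of -1.62 ± 0.28 (SE, edgeR adjusted p = 3.91e-05). The groups did not overlap in either type. In loop of Henle-like cells the difference was -1.28 ± 0.39 (SE, edgeR adjusted p = 0.0249) and in ureteric epithelium-like cells -1.19 ± 0.28 (SE, edgeR adjusted p = 0.00194), where dividing cells of replicate 2 (133 CPM) were above unmarked cells of replicate 1 (132 CPM). In endothelial-like cells it was at 0.44 and not called. With DESeq2 the loop of Henle difference was -1.27 (DESeq2 adjusted p = 0.0645) and the ureteric one -1.16 (DESeq2 adjusted p = 0.0779), both without a call, and the first was not called under 4 of 10 alternatives with a test, with adjusted p from 1.26e-10 to 0.0689. With cells thinned after states were called the loop of Henle difference was -2.36. The ureteric call held under the others, with adjusted p from 1.36e-18 to 0.0779 over 11 alternatives. From replicate 2 alone the proximal tubule difference was -2.26, and with either gene enough for a dividing cell it was -0.82. The summed dissociation genes stood at 839 and 834 CPM in dividing against 1860.0 and 1553 CPM in unmarked loop of Henle-like cells, at 1169 and 1339 against 1157 and 1047 CPM in early nephron-like, at 967 and 1055 against 981 and 1485 CPM in ureteric epithelium-like and at 642 and 676 against 668 and 641 CPM in proximal tubule-like cells. Of the 11 tested, 5 were lower in loop of Henle-like (median log2 difference -1.65), 6 in ureteric epithelium-like (-0.99), 3 in early nephron-like, where 1 was higher (-0.67), and 2 in proximal tubule-like cells (-0.60). Their part in the Cdkn1a differences was not tested.

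Cdkn1c was lower in dividing stroma-like cells, at 535 and 406 CPM against 1295 and 1455 CPM in unmarked cells, a log2 difference of -1.51 ± 0.20 (SE, edgeR adjusted p = 2.23e-07). It was lower in dividing endothelial-like cells too, at 323 and 166 CPM against 471 and 318 CPM, a difference of -0.71 ± 0.21 (SE, edgeR adjusted p = 0.0229). The stroma-like groups did not overlap, whereas the endothelial-like groups did. The endothelial call ended without the replicate block (-0.71, edgeR adjusted p = 0.124), with DESeq2 (-0.74, DESeq2 adjusted p = 0.121) and with either gene enough for a dividing cell (-0.61, edgeR adjusted p = 0.0557), with adjusted p from 5.98e-10 to 0.124 over 14 alternatives. In nephron progenitor-like (-0.31 ± 0.20) and early nephron-like cells (0.17 ± 0.22) no difference was called. Cdkn1b was higher in dividing nephron progenitor-like (0.42 ± 0.13 SE, edgeR adjusted p = 0.0449) and stroma-like cells (0.46 ± 0.13 SE, edgeR adjusted p = 0.00786), and each of these calls ended under 7 of 14 alternatives with a test, with adjusted p from 1.68e-05 to 0.595 for the first and with adjusted p from 0.00213 to 0.324 for the second. Where the calls ended, the differences lay between 0.31 and 0.42 in nephron progenitor-like and between 0.24 and 0.36 in stroma-like cells. With cells thinned before states were called the nephron progenitor-like difference was 1.01 (edgeR adjusted p = 1.68e-05).

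Cdkn2c was higher in dividing cells of all 8 types. In stroma-like cells it stood at 79.8 and 61.9 CPM in dividing against 3.75 and 2.98 CPM in unmarked cells, from 443 UMIs against 40. The ratio of the pooled levels was 21.1 (95% interval 15.2 to 29.9), with an exact interval that covers counting error only. In endothelial-like cells the ratio was 36.3 (95% interval 16.4 to 99.9), from 235 UMIs against 6, and in immune-like cells 14.4 (95% interval 6.87 to 34.9), from 61 UMIs against 8. The groups did not overlap in any of the 8 types. In the nephron lineage the ratio was 19.3 (95% interval 6.35 to 96.1) for nephron progenitor-like cells, from 69 UMIs against 3, and 11.8 (95% interval 3.20 to 98.5) for early nephron-like cells, from 127 UMIs against 2. Proximal tubule-like cells held 8 UMIs when dividing and 0 when unmarked, at least 6.27-fold higher against a floor of 3 counts over both libraries. The fitted difference was 4.43 ± 0.25 (SE, edgeR adjusted p = 4.53e-16) in stroma-like, 5.14 ± 0.39 (SE, edgeR adjusted p = 1.50e-12) in endothelial-like and 3.60 ± 0.44 (SE, edgeR adjusted p = 3.95e-07) in immune-like cells. With either gene enough for a dividing cell the stroma-like value was 3.68 and the immune-like value 2.99, the immune-like value was 4.44 with at least 5000 UMIs per cell, and the endothelial-like value was 4.28 with cells thinned before and 4.44 after states were called. When cells were thinned after states were called, the nephron progenitor-, stroma-, endothelial- and immune-like calls remained, and those in early nephron-, proximal tubule-, loop of Henle- and ureteric epithelium-like cells ended, where the unmarked cells had held 2 UMIs or fewer before thinning. Of those that ended, the difference went from 3.79 to 3.83 in ureteric epithelium-like, from 3.48 to 2.82 in early nephron-like and from 4.23 to 1.13 in loop of Henle-like cells. The fitted size in proximal tubule-like cells is not given, since it rests on 0 unmarked UMIs. From replicate 2 alone the difference was 2.22 in ureteric epithelium-like and 2.97 in loop of Henle-like cells, and from replicate 1 alone it was 5.02 and 5.79 in these types and, in nephron progenitor-like cells, 3.26. With a stricter gate the ureteric epithelium-like value was 6.53. With at most 5% mitochondrial UMIs the nephron progenitor-like call ended although its difference was larger, at 5.59 (edgeR adjusted p = 0.119), with adjusted p from 4.92e-10 to 0.119 over 14 alternatives. The early nephron-like call ended under that limit too (2.13, edgeR adjusted p = 0.0798) and with cells thinned before states were called (2.30, edgeR adjusted p = 0.0918), with adjusted p from 9.47e-06 to 0.104 over 14 alternatives.

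The level of Cdkn2c in dividing cells differed between types. It was 60.1 and 93.8 CPM in immune-like, 79.8 and 61.9 CPM in stroma-like and 31.5 and 38.6 CPM in endothelial-like cells. In the 5 epithelial and progenitor types it lay between 1.20 and 7.75 CPM. Near-empty barcodes held 18.3 and 12.1 CPM, from 14 and 10 UMIs, above every epithelial type. Stroma-like cells with only 1 of the 2 division genes held 16 UMIs over both libraries, 4.23 CPM, at a ratio of 1.25 (95% interval 0.652 to 2.28) to unmarked cells. The same ratio was 5.85 (95% interval 1.33 to 35.0) in nephron progenitor-like cells, from 7 UMIs against 3, and 1.86 (95% interval 1.30 to 2.65) over all kept cells, from 60 UMIs against 74.

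**Figure D4:**
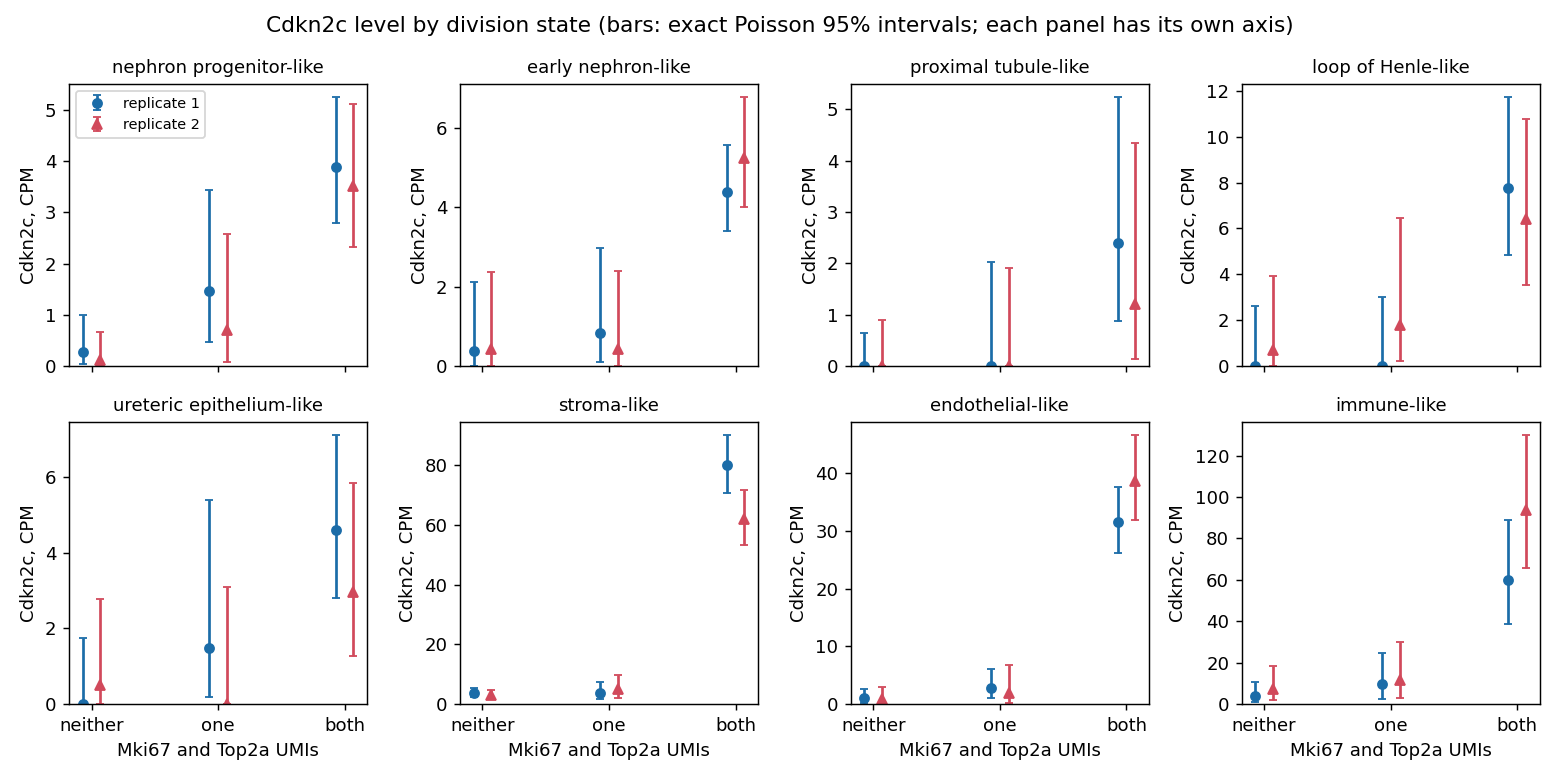
Cdkn2c level in CPM for cells with UMIs of neither, one or both of Mki67 and Top2a, in 8 types with a separate axis each; circles are replicate 1, triangles replicate 2 and bars exact Poisson 95% intervals, which cover counting error only. The level is highest in cells with both genes in every panel, at 79.8 and 61.9 CPM in stroma-like cells and at 3.89 and 3.52 CPM in nephron progenitor-like cells.

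Dividing cells of 7 types were also compared with dividing nephron progenitor-like cells, a contrast chosen after these levels were seen. In early nephron-like cells 4 of 9 members were called, against 37.4% of all genes, and Ccnd1 differed by 4.59 ± 0.18 (SE, edgeR adjusted p = 7.45e-21). In stroma-like cells 6 of 9 were called against 49.2% of all genes, with Cdkn2c at 4.33 ± 0.24 (SE, edgeR adjusted p = 9.15e-17) and Cdkn1c at 1.93 ± 0.21 (SE, edgeR adjusted p = 1.12e-09). In endothelial-like cells 7 of 9 were called against 56.5%, and in immune-like cells 7 of 9 against 41.2%, with Cdkn2c at 3.22 ± 0.24 (SE, edgeR adjusted p = 2.10e-13) and 4.29 ± 0.32 (SE, edgeR adjusted p = 2.38e-13). In loop of Henle-like cells all 9 were called against 51.2%, with Ccnd1 at 3.01 ± 0.18 (SE, edgeR adjusted p = 2.87e-16). When cells were thinned after states were called, 5 of those 9 calls ended, those of Cdk6, Cdkn1a, Cdkn1b, Cdkn1c and Cdkn2c. The Cdkn1a difference went from 1.73 to 1.71, but was 2.84 from replicate 2 alone and 0.89 from replicate 1 alone. That of Cdkn1b went from 0.57 to 0.17 and that of Cdkn1c from -0.96 to -0.65, and that of Cdkn2c turned from 0.81 to the other direction (-0.19, edgeR adjusted p = 1), with adjusted p from 0.0171 to 1 over its alternatives. In proximal tubule-like cells 7 were called against 49.8%, and in ureteric epithelium-like cells 7 against 50.6%, with Ccnd2 at -3.37 ± 0.31 (SE, edgeR adjusted p = 2.08e-11) and 1.33 ± 0.18 (SE, edgeR adjusted p = 1.21e-07). Without doublet removal the proximal tubule Ccnd2 difference was -2.10, and with at most 5% mitochondrial UMIs the endothelial Cdkn2c difference was 3.95. Thinning after states were called also ended the Cdkn1b calls in proximal tubule-like (0.49 to 0.24) and endothelial-like cells (0.44 to 0.13). The proximal tubule Ccnd1 call ended with that thinning while its difference went from -0.61 to -1.17 (edgeR adjusted p = 0.0883), and it turned to 0.40 (edgeR adjusted p = 0.163) without doublet removal, with adjusted p from 7.61e-05 to 0.163 over its alternatives. The Cdkn1a call in early nephron-like cells ended under 6 of 14 alternatives, with adjusted p from 1.74e-07 to 0.572 and differences from 0.35 to 0.97 where it ended, against 0.89. In stroma-like cells the Cdkn1b call ended with cells thinned before states were called (0.99 to 0.33) and the Ccnd1 call with at most 5% mitochondrial UMIs (0.78 to 0.36). Cdk6 was higher than in dividing nephron progenitor-like cells in all 7 types, by between 0.94 and 3.28. The lowest of these, in loop of Henle-like cells, became 0.61 (edgeR adjusted p = 0.844) with cells thinned after states were called, with adjusted p from 7.95e-04 to 0.844 over 10 alternatives. The higher Ccnd1 of early nephron-like cells was thus present in both states, and the higher Cdkn2c of stroma-, endothelial- and immune-like cells was present among dividing cells.

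Cell by cell, each cell was thinned to 4600 UMIs and its state called again. Of stroma-like cells with a Cdkn2c UMI, 72.5% of 69 (95% exact binomial interval 60.4% to 82.5%) and 74.5% of 55 (61.0% to 85.3%) were dividing in replicates 1 and 2, against 12.7% and 15.4% of cells without one. Of proximal tubule-like cells with a Cdkn1a UMI, 1.69% (0.206% to 5.99%) and 3.74% (1.03% to 9.30%) were dividing, against 11% and 11.6% without. For Cdkn1a in early nephron-like cells the libraries differed, at 26.4% with against 35.1% without in replicate 1 and 10.3% against 37.0% in replicate 2. Endothelial-like cells with a Cdkn1a UMI were dividing more often than those without, at 25.5% against 16.0% in replicate 1 and 33.3% against 22.3% in replicate 2. Stroma-like cells with a Ccnd2 UMI were dividing in 14.3% and 14.8% of cases, against 24.2% and 30.8% of those without, while ureteric epithelium-like cells had the opposite order, 19% and 12.9% against 3.08% and 3.33%. Cells of 1 library are not replicates, and these shares carry no test.

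Other genes of the pathway were counted in the averaged contrast of dividing against unmarked cells, in which the median log2 difference of all genes was -0.071 and 29.3% of all genes were called in either direction. Of 15 RB and E2F genes, 11 were higher and 1 lower, with a median of 0.43. E2f8 and E2f7, repressor E2Fs that act late in the cycle, differed by 4.53 ± 0.19 (SE, edgeR adjusted p = 4.48e-20) and 3.71 ± 0.26 (SE, edgeR adjusted p = 8.52e-14), and E2f2, an activator, by 2.76 ± 0.26 (SE, edgeR adjusted p = 1.15e-10), whereas Rb1 was lower at -0.50 ± 0.087 (SE, edgeR adjusted p = 2.32e-05). All 12 later cyclins, kinases and CDC25 phosphatases were higher, with a median of 2.60, led by Cdc25c, by Ccna2 (5.57 ± 0.10 SE, edgeR adjusted p = 5.73e-31) and by Ccnb1 (5.45 ± 0.13 SE, edgeR adjusted p = 3.67e-28), and the state was itself called from Mki67 and Top2a, which mark the same phases. Of the other CDK inhibitors, 2 of 3 tested were higher, with a median of 1.44: Cdkn3, a phosphatase that acts on CDKs (4.79 ± 0.15 SE, edgeR adjusted p = 2.65e-24), and Cdkn2d, an INK4 inhibitor like Cdkn2c (1.44 ± 0.11 SE, edgeR adjusted p = 1.76e-13). The members themselves had a median of -0.13.

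Ubiquitin ligase parts that act on Cip/Kip proteins numbered 9, of which 5 were higher and 2 lower, with a median of 0.15. Cks2 (2.71 ± 0.068 SE, edgeR adjusted p = 3.79e-27), Cks1b (1.75 ± 0.057 SE, edgeR adjusted p = 6.69e-24), which helps the ligase recognise p27, and Dtl (1.63 ± 0.10 SE, edgeR adjusted p = 9.90e-16), which targets p21, were higher, and Skp1a (-0.22 ± 0.038 SE, edgeR adjusted p = 1.52e-05) and Cul4b (-0.18 ± 0.066 SE, edgeR adjusted p = 0.0423) were lower. Of 13 p53 targets tested 0 were higher and 6 lower, with a median of -0.35, among them Trp53inp1 (-1.14 ± 0.22 SE, edgeR adjusted p = 7.78e-05), Btg2 (-0.99 ± 0.11 SE, edgeR adjusted p = 4.51e-09) and Bbc3 (-0.54 ± 0.15 SE, edgeR adjusted p = 0.00557). The 6 Myc family genes had 3 lower, Mxd4, Mxd1 and Max, and 0 higher, with a median of -0.44. Of 6 imprinted genes beside Cdkn1c on chromosome 7, H19 (0.35 ± 0.13 SE, edgeR adjusted p = 0.0376) and Kcnq1ot1 (0.17 ± 0.052 SE, edgeR adjusted p = 0.0136) were higher and Slc22a18 (-1.39 ± 0.35 SE, edgeR adjusted p = 0.00206) and Igf2 (-0.57 ± 0.14 SE, edgeR adjusted p = 0.00159) lower, with a median of -0.79. Of 11 dissociation genes tested 7 were lower and 1 higher, with a median of -0.85, and their part in the lower Cdkn1a was not tested.

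Genes whose level over the 11 types was most like a member's were ranked by Pearson's r of log2(CPM + 1) in unmarked cells, among 10194 genes with at least 20 CPM in some type. This is a description over 11 types that share 2 libraries and the low CPM of erythroid-like cells. Nearest to Ccnd1 were Pde4a (r = 0.93), Maml2 and Oraov1, nearest to Ccnd2 Basp1 (r = 0.93), Tpst1 and Rcn3, and nearest to Ccnd3 Eea1 (r = 0.98), Sirt2 and A230046K03Rik. Among those nearest to Cdk4 were Gm9493 (r = 0.99) and the ribosomal protein gene Rpl15, and nearest to Cdk6 were Mid1ip1 (r = 0.92), Crip1 and Dap. Cdkn1a was nearest to Slc16a13 (r = 0.93), Bid and Rdh12, Cdkn1b to Atp7a (r = 0.97), Tet2 and Fut8, and Cdkn1c to Pcsk6 (r = 0.93), Frmd6 and C1qtnf1. Pcsk6, like Cdkn1c, was highest in podocyte-like cells, at 95.5 CPM, and Basp1, like Ccnd2, in stroma-like cells, at 624 CPM.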

How the data were processed

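The deposited values are raw UMI counts per gene and barcode, not filtered for cells, of 2 droplet libraries. Cell Ranger 4 wrote the matrices, per the file headers, whereas Cell Ranger 6.0.1 and mm10 are named per the submitters' processing notes. The libraries held 163405630 and 135436576 UMIs over 28693 genes. Median UMIs per kept cell were 11716.5 and 12196.

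Barcodes with at least 2000 UMIs (6910 and 5917) and at most 10% mitochondrial UMIs (6220 and 5149) were kept. Scrublet's own threshold marked 63 and 22 cells, so the highest scores were removed at 0.8% per 1000 cells, which took out 310 and 212. Cells were assigned to 1 of 13 types by 97 markers, each scaled to its 90th percentile, with a score of at least 0.25, a lead of 0.1 and 2 markers detected. These minimums were set after marker levels were seen. A type needed 20 cells of a state in each library, and shares were thinned to 4600 UMIs. Intervals are exact, at 95%, and cover counting error only.

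UMIs were summed into 38 columns and 14415 genes were tested with edgeR 4.0.16 (TMM, filterByExpr, quasi-likelihood, the library as a block, 18 residual degrees of freedom) in R 4.3.3. The block follows from the design, since all sums of a number come from 1 library. Same-library deviations correlated with a median r of 0.13 over 171 pairs of groups, 63.7% of them over 0.1. SE is the log2 difference divided by the root of the F statistic. The averaged contrast was tested on simulated data of 14221 genes, which recovered 66.67% of changes of 0.5, 86.76% of 1 and 93.94% of 2 on the log2 scale, with 4 false calls among 14021 unchanged genes. The simulation gave all genes the same dispersion (0.0041) and no library effect, and changed only genes above a minimum mean count. Differences in spread between genes were not simulated, so these rates may not hold for the real fit.

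All members are named, with the 3 genes most like each in level and up to 3 called genes per direction of each pathway list. Some genes most like Cdk4 and Cdkn2c are not reported here. The members and lists were chosen with earlier results of these data known. Alternatives were stricter limits on cells, no doublet removal, a stricter gate, another state rule, thinning, RLE and total-UMI scaling, no low-count filter, no erythroid-like cells, no block, DESeq2 1.42.0 and single libraries. The limit of 50000 UMIs, total-UMI scaling and thinning after states were called were added after the data were seen, as were the contrasts between dividing cells. Python 3.11.15 with scanpy 1.11.5 was used.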

Additional observations from a re-analysis of the deposited data

Results flagged for a closer look

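The change from unmarked to dividing cells differed between the 8 types for 7 members. The test was edgeR's joint test of the type-by-state terms, with Benjamini-Hochberg adjustment over 14415 genes. It called 22.5% of all genes. The edgeR adjusted p was 5.54e-05 for Ccnd1, which was higher in dividing early nephron-like cells and lower in dividing stroma-like cells. It was 9.09e-05 for Cdkn1a, with log2 differences from -2.66 in early nephron-like to 0.44 in endothelial-like cells. It was 1.78e-04 for Cdkn1c, 2.47e-04 for Ccnd2, 0.00387 for Ccnd3, 0.0162 for Cdk4 and 0.0207 for Cdkn1b. Dividing and unmarked cells differ in UMIs per cell by an amount that also varies between the types, and its part in these differences was not tested.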

How the results depend on the processing

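Of 127 called results on members, not counting the calls of types against the others, 1874 values were recomputed under 16 alternatives. Of these, 1777 kept their direction and, where there was a test, their call, 94 kept the direction without the call and 3 turned. The 1777 include 127 values without replicate 1 and 127 without replicate 2, which have a direction but no test. The averaged Ccnd1 difference turned to -0.027 with cells thinned before states were called. That value is over 4 types, so it is not the same average. It lacks loop of Henle- and ureteric epithelium-like cells, in which Ccnd1 was called higher, and keeps stroma-like cells, in which it was called lower. Ccnd1 in dividing proximal tubule- against dividing nephron progenitor-like cells, -0.61, turned to 0.40 without doublet removal, and Cdkn2c in the loop of Henle-like contrast of that kind turned from 0.81 to -0.19 with cells thinned after states were called. The cause was not tested. Within types, 33 calls of 72 became 14 of 36 with at most 5% mitochondrial UMIs and 15 of 36 with cells thinned before states were called, where 4 types were left. Thinning after states were called gave 22 calls of 72, 9 higher and 13 lower. Types against the others gave 36 calls of 63, in place of 62 of 99, with at most 5% mitochondrial UMIs, where 7 types were left, and proximal tubule- and ureteric epithelium-like contrasts gave no value there. Without the replicate block 26 calls were made within types, 57 of types against the others and 6 in the averaged contrast. The share of all genes called was not counted under these alternatives. Whether the members lost calls more than other genes was therefore not tested.

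With 1 library there is no test, so counts of calls have no value without replicate 1 or 2. All calls kept their direction in both single libraries, except 2 of the 62 of types against the others. Precision is limited by the 2 libraries, by the 28 and 26 dividing loop of Henle-like cells and 50 and 38 dividing ureteric epithelium-like cells, and, for Cdkn2c, by unmarked sums of a few UMIs.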

Other observations

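Nephron progenitor-like cells were split by Cited1, a gene of the uncommitted progenitor, after thinning to 4600 UMIs, a split chosen with the data in view and given without a test. Unmarked cells with a Cited1 UMI held Cdkn1c at 157 and 182.1 CPM in replicates 1 and 2, and those without held 77.1 and 94.5 CPM. Ccnd1 stood at 51.4 and 39.9 CPM with Cited1 and at 52.6 and 81.9 CPM without it, from 62 and 69 cells without a Cited1 UMI. Both groups were far below the early nephron-like level of Ccnd1 in both libraries.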
